A study of Homo sapiens with 3 samples.

Results

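Among the ETS1 binding sites of SCC25 cells, 2910 peaks lay far from any annotated transcription start site (TSS) and inside a super-enhancer (SE). They were chosen by position alone. The midpoint of each was over 1500 bp from the nearest TSS of GENCODE release 44, and the peak overlapped by at least 1 bp one of the 965 SEs that the authors had called in this cell line. They made up 10.8% of the 26958 peaks on chromosomes 1 to 22 and X (95% Wilson interval 10.4 to 11.2%) and 22.4% of the 12980 TSS-distal peaks (interval 21.7 to 23.1%). The whole list held 26970 peaks.

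SCC25 is an established human line of squamous carcinoma of the oral tongue, described in the labels as mesenchymal. ETS1 was precipitated from untreated cells in 3 ChIP-Seq samples, of which 2 used the antibody C20 and 1 used 501A. All the data therefore come from 1 line in 1 condition. The authors combined the samples with the irreproducible discovery rate (IDR) procedure, which keeps peaks whose ranking holds across replicates, into 1 list of chromosome, start and end. No height, summit, score or value per sample was in that list, so there is no spread between replicates, the antibodies cannot be compared, and the depth behind a peak is unknown. Intervals on shares cover the counting of peaks only. Differences between the 2910 peaks and the 10070 TSS-distal peaks in no SE were estimated by regression over all 12980, and neighbouring peaks were not taken as independent, since all peaks of a 1 Mb block shared their error. All positions are 1-based on hg19.

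ETS1 is the founding member of the ETS family of transcription factors, which bind DNA through a winged helix-turn-helix domain that recognises a GGAA core. It acts downstream of Ras and MAP kinase signalling, often beside AP-1, the dimers of FOS and JUN proteins that bind TGACTCA. SEs are stretches in which several enhancers lie close together under a heavy load of H3K27Ac, a histone mark of active enhancers, and they are frequently found at genes that define the identity of a cell. In squamous epithelium and its carcinomas, such genes include TP63, EGFR and the genes of adhesion to the basement membrane.

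The sequence of the peaks is shown first, at places where an ETS core and an AP-1 site stood closest to each other inside a peak. The ETS core was AGGAAA or AGGAAG on either strand, so that it reads TTTCCT or CTTCCT on the other, and AP-1 was TGACTCA, which reads TGAGTCA on the other. Each of the following 8 lines comes from a different SE among those named in this text and is read 5′ to 3′ on the plus strand. Capitals mark the closest pair of motifs only, and the TNS4 line holds a further ETS core in lower case near its start. The reference sequence is printed, not that of SCC25.
SMAD3 SE, chr15:67342654-67342689: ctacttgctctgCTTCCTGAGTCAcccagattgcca
VEGFA-assigned SE, chr6:44002486-44002522: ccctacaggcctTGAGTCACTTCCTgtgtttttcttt
TNS4 SE, chr17:38675067-38675104: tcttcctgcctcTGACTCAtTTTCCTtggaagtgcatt
CCND1-assigned SE, chr11:69069562-69069599: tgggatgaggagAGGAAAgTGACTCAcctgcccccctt
CD44 SE, chr11:35165956-35165990: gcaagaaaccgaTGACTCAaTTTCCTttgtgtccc
EGFR SE, chr7:55155577-55155618: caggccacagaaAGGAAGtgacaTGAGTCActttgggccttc
CMIP SE, chr16:81557361-81557406: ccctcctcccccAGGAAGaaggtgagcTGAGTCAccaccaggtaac
ANO1-assigned SE, chr11:69808491-69808540: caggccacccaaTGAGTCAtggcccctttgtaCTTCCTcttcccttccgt

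In the line from SMAD3 the motifs shared 1 base, and in the line from the SE assigned to VEGFA they touched with a gap of 0 bp. The gap was 1 bp in the lines of TNS4, CCND1 and CD44, then 5 bp at EGFR, 9 bp at CMIP and 13 bp at ANO1. The lines of CD44, EGFR and CMIP lay in the first intron of those genes. The other 5 lay outside protein-coding genes, at distances from the nearest canonical protein-coding TSS between 15397 bp (SMAD3) and 146164 bp. The latter is the distance to SMIM38, from the line of the CCND1-assigned SE. The lines give 1 pair per SE, lying wholly inside a peak, and were chosen for a small gap, so they do not show the usual arrangement. A pair 1 bp apart in the SE of rank 24 is not printed, and a pair 4 bp apart at EGFR was passed over because it reached past the edge of its peak. Of the 2910 windows of 600 bp centred on the peaks, 914 held both motifs, and the closest pair in them was separated by a median of 69 bp. The gap was at most 5 bp in 90 of the 914 (9.85%, Wilson interval 8.08 to 11.9%) and at most 50 bp in 362 (39.6%, interval 36.5 to 42.8%). In the TSS-distal peaks outside SEs, 3444 windows held both, with a median gap of 60 bp, and 45.3% of them had a gap of at most 50 bp (interval 43.6 to 47.0%).

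The peaks were spread over most SEs, and a small number of SEs held many of them. At least 1 was present in 784 of the 965 SEs (81.2%, interval 78.7 to 83.6%), with a mean of 3.02 ± 2.97 per SE (SD across 965 SEs), a median of 2 and a maximum of 24. A single one was found in 184 SEs. There were 237 SEs with 5 or more, and these held 57.9% of the 2910 peaks, while the 34 SEs with 10 or more held 14.8%. A further 165 SEs had ETS1 peaks near a TSS only, and 16 had no ETS1 peak. In 145 SEs every ETS1 peak was TSS-distal. Of the 4633 peaks in SEs, 62.8% were TSS-distal (interval 61.4 to 64.2%), against 45.1% of the 22325 peaks elsewhere (interval 44.5 to 45.8%).

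SEs near the top of the ranking carried more TSS-distal ETS1 peaks. The ranking is by H3K27Ac signal summed over the SE, so SEs of high rank are also long. Split into 4 groups of near-equal size by rank, the 242 SEs of ranks 1 to 242 held 5.20 ± 3.82 each (SD across SEs), with a median SE length of 104 kb. In the groups below them the mean was 2.90 ± 2.54, 2.16 ± 1.95 and 1.79 ± 1.84, with median lengths of 68.5, 49.8 and 42.7 kb. Per 10 kb of sequence the order from the first to the last group was 0.452, 0.418, 0.383 and 0.378 peaks, a much narrower range. Sorted by length instead, the mean number went from 1.03 ± 1.23 in the shortest group to 5.26 ± 3.87 in the longest, and the number per 10 kb from 0.608 to 0.366. The share of peaks that were TSS-distal went from 41.1% in the shortest to 71.4% in the longest group. No test was made across SEs, and rank and length cannot be told apart here.

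**Figure D1:**
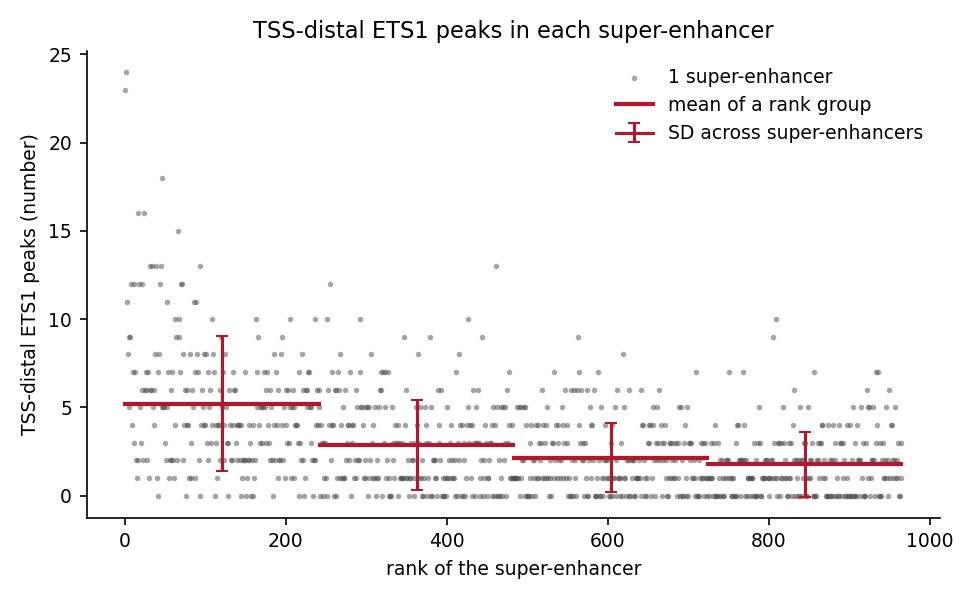
Each point is 1 of the 965 SEs, with its rank on the horizontal axis and its number of TSS-distal ETS1 peaks on the vertical axis. Red lines give the mean in each of 4 groups by rank and bars the SD across SEs. The means fall from 5.20 to 1.79, and the SEs of ranks 2 and 1 stand highest with 24 and 23 peaks.

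The largest number of TSS-distal ETS1 peaks was found at rank 2 (chr11:69907736-70059161), an SE over ANO1, a calcium-activated chloride channel, and FADD, an adaptor of death receptors. It held 24 of them and 7 peaks near a TSS, and the 24 covered 26.9% of its length. Introns of ANO1 contained 17 of the 24, from the second intron to intron 24. Their widths ran from 436 to 6440 bp with a median of 1226.5 bp over the whole SE. An ETS core was present in 17 of the 24 windows and an AP-1 site in 1. The input reads were 4.87 times as dense in this SE as in the median SE, and the part of the input in these peaks was not tested. In the SE of rank 289, assigned to ANO1 and the source of its printed line, input reads were 5.12 times as dense as in the median SE.

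Rank 1 (chr1:94979623-95272760) was second with 23. This SE overlaps F3, which encodes tissue factor, the initiator of blood coagulation, and ABCD3, a peroxisomal transporter. Introns 4 and 5 of F3 held 1 each, and the other 21 lay outside protein-coding genes. These peaks were narrower than those at ANO1, with a median width of 582 bp and a range of 300 to 1489 bp. They had an ETS core in 21 of 23 windows and an AP-1 site in 5, and the input density was 2.78 times the median.

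The next SE was that of rank 46 (chr16:81458610-81694553) with 18, all of them in introns of CMIP, an adaptor protein of signalling, and 14 of these in its first intron. Its input density was 0.845 times the median. Then came the SEs of rank 16 at SDC1, a heparan sulfate proteoglycan of the epithelial surface, with 16 and an input of 0.868 times the median, and of rank 24 (chr8:103691522-103824089), also with 16, in the domain of KLF10. Rank 66 (chr2:43123245-43316423) held 15, between HAAO and the RNA-binding protein gene ZFP36L2. There were 13 in each of 6 SEs, of ranks 32 (TNS4, IGFBP4 and CCR7), 34 (CELSR1), 39 (SEPTIN9), 45 (SMAD3), 94 (SHB) and 461 (PADI1 and PADI3). All but rank 461 belong to the first group of the ranking. The SE of rank 94 had no peak near a TSS.

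**Figure D2:**
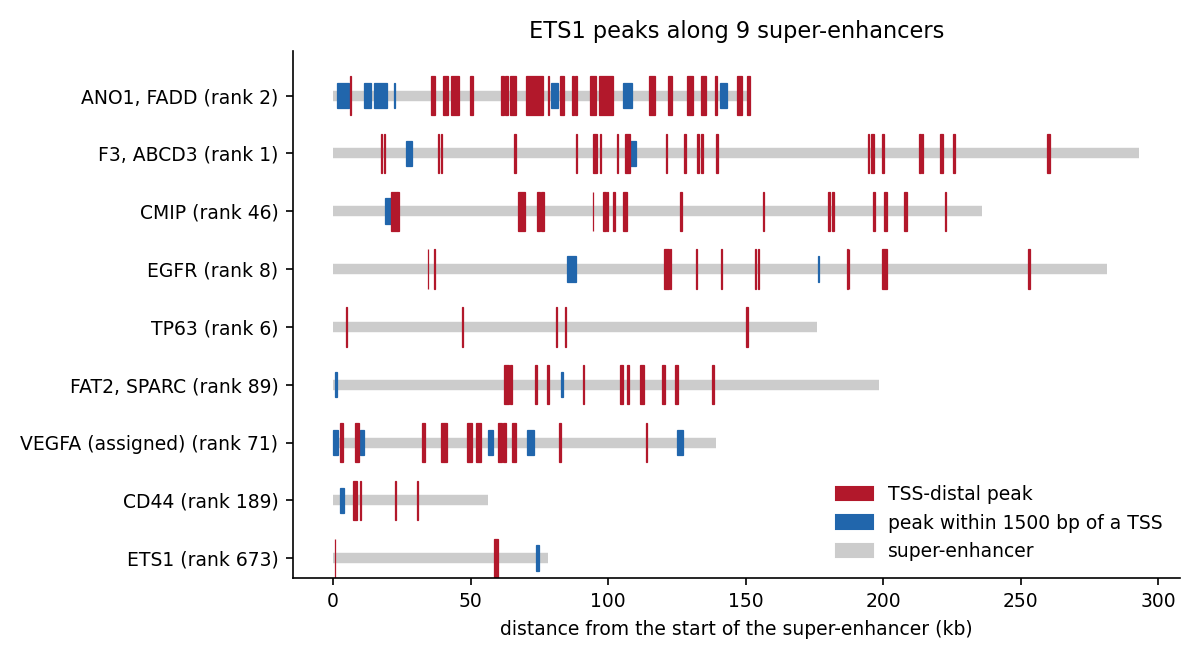
ETS1 peaks are drawn to scale along 9 SEs, with the distance from the start of each SE in kb on the horizontal axis. Red bars are TSS-distal peaks, blue bars are peaks within 1500 bp of a TSS and grey bars are the SEs. The 24 TSS-distal peaks at ANO1 and FADD are crowded into 151 kb, while the 5 at TP63 and the 12 at EGFR are mostly narrow and far apart.

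EGFR, the receptor of epidermal growth factor, lies under the SE of rank 8 (chr7:55000787-55282187). This SE held 12 TSS-distal ETS1 peaks and 2 near a TSS. There were 9 in the first intron of EGFR, 1 in intron 20 and 2 upstream of the gene. Most were narrow, with a median of 399 bp and a range of 280 to 1869 bp. All 12 windows of 600 bp, which reach past most of these peaks, held an ETS core and 7 held an AP-1 site. Over all 2910 windows an ETS core was in 85.3% and an AP-1 site in 37.0%. At EGFR the closest core and AP-1 site were 4 bp apart, in the window of chr7:55154128-55154666. Gaps of 5 bp in the printed line, 8 bp at chr7:55141634-55142065 and 14 bp at chr7:55123216-55123725 followed. The peaks covered 2.74% of the SE, against 26.9% at ANO1.

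TP63 encodes p63, the master regulator of stratified epithelium. Its SE of rank 6 (chr3:189505057-189680956) held 5 TSS-distal peaks and none near a TSS. They lay in introns 3, 4 and 9, in an exon and downstream of the gene, and their widths of 330 to 677 bp (median 357 bp) were below the median of all 2910. The 600 bp windows, which reach past most of these narrow peaks, held an ETS core in all 5 and AP-1 sites in 1. The input density of this SE was 2.02 times the median, just over the 2 times used below as the limit of high input. The SEs of rank 284 and rank 147, which the rule of GREAT also assigns to TP63, held 4 and 2. At rank 284, 3 of the 4 were in introns of TPRG1.

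Among the other genes the study names beside SEs, FAT2, an atypical cadherin, shared the SE of rank 89 with SPARC, a matrix protein, and this SE held 11, of which 4 were in the first intron of FAT2. The SE of rank 189 held 4, all in the first intron of CD44, the hyaluronan receptor, and 5 more lay in the SE of rank 467 upstream. PTGS1, a cyclooxygenase, had 7 in the SE of rank 292, and WNT7A, a secreted Wnt ligand, had 5 in that of rank 400. VEGFA, a growth factor of blood vessels, was assigned the SEs of ranks 71 and 782 with 12 and 3. CCND1, which encodes cyclin D1, had 2 in the SE of rank 14, which were 3727 and 3848 bp wide. The SEs of ranks 91 and 946 overlap MYEOV and were assigned to CCND1 by the rule of GREAT, with 7 and 5. At rank 91 the nearest canonical protein-coding TSS was that of SMIM38 for all 7. The input density of these 3 SEs was 4.28, 3.81 and 3.66 times the median. SOX9, a transcription factor of progenitor cells, was assigned the SE of rank 457 with none and that of rank 908 with 3. These SEs also had 4 and 5 ETS1 peaks near a TSS. The SE of rank 731, at the intermediate filament gene VIM, held none and had 2 peaks near a TSS.

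The SE of the ETS1 gene itself, of rank 673 (chr11:128317933-128396121), held 2 TSS-distal ETS1 peaks and 1 near a TSS. One is 257 bp wide and lies downstream of the gene at chr11:128318480-128318736. No ETS core lay wholly inside this peak, although its 600 bp window held 5. The other is 1302 bp wide, at chr11:128376446-128377747 in intron 3 of ETS1, 1808 bp from an alternative TSS of the gene. Its core closest to the midpoint, 112 bp away, is printed in capitals. Whether ETS1 contacts this core was not tested, since the list gives no summit and such short cores are also frequent outside peaks. The line was chosen after the peak had been seen.
ETS1 intron 3, chr11:128376970-128376999: gcacaggaactgAGGAAGgtgcagtcacaa

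TSS-distal ETS1 peaks were wider inside SEs than outside. Inside, widths ran from 241 to 8776 bp around a median of 834 bp, with 536 and 1256 bp as quartiles, and elsewhere the median was 674 bp, with 457 and 1007 bp as quartiles. The ratio of geometric means was 1.22 (95% interval 1.17 to 1.26), and the mean log2 width was higher on 21 of 23 chromosomes. A width over 2 kb was found in 8.83% against 3.46%. Wide peaks were still a minority, and the 1723 peaks near a TSS in the same SEs were wider again, with a median of 1498 bp. Peaks in the typical enhancers of the part of the enhancer table used here (ranks 966 to 1999, 1204 peaks, not tested) had a median width of 786.5 bp.

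**Figure D3:**
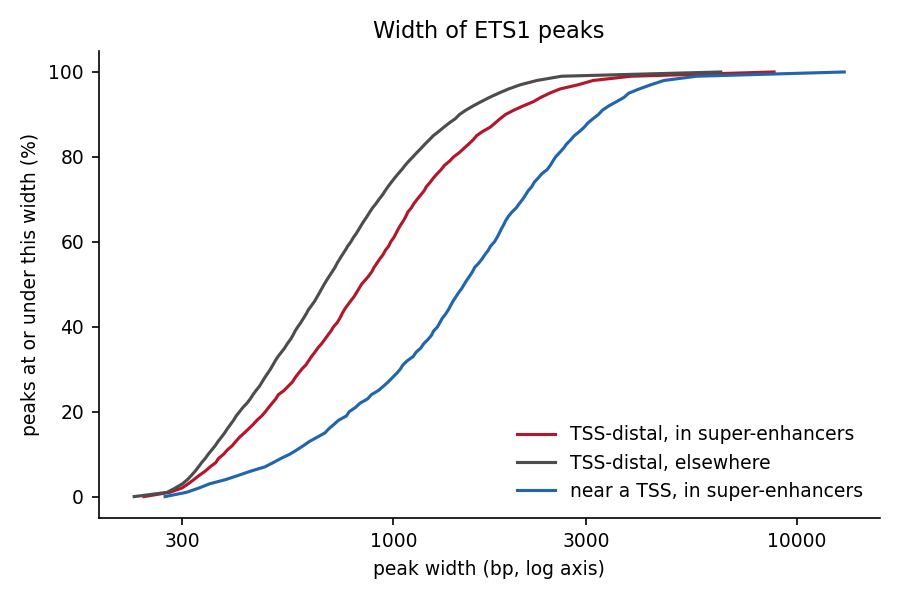
The share of peaks at or under each width is plotted against width in bp on a log axis. The red line (2910 TSS-distal peaks in SEs, median 834 bp) lies to the right of the grey line (10070 TSS-distal peaks elsewhere, median 674 bp) and to the left of the blue line (1723 peaks near a TSS in SEs, median 1498 bp).

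The 3 widest were all in introns. The widest, 8776 bp at chr11:118788231-118797006, lay in the first intron of BCL9L, a coactivator of beta-catenin, in the SE of rank 49. It was followed by 7483 bp at chr1:37939046-37946528 in intron 2 of ZC3H12A, an RNase that limits inflammatory transcripts, and by 7079 bp at chr7:5458019-5465097 in the first intron of TNRC18.

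Peaks inside SEs also stood earlier in the deposited list, whose order is not explained. In SEs, 54.0% of the TSS-distal peaks were within the first 13485 lines, against 40.1% elsewhere, a difference of 13.9 percentage points (95% interval 11.8 to 16.0) seen on 23 of 23 chromosomes. Position in the list went with width, since 35.6% of the narrowest of the 4 groups by width and 75.8% of the widest were in those lines. The difference was therefore computed again with log2 width as a covariate, which left 9.35 points (interval 7.28 to 11.4). In reverse, with the line number as a covariate, the difference in log2 width was 0.19 (interval 0.15 to 0.24). Both covariates were added after the data had been seen. Peaks in the typical enhancers in hand had 52.2% in those lines.

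The peaks in SEs were more often intronic. Introns of protein-coding genes, by the canonical transcript, held 46.7% of them and 35.4% of those elsewhere (difference 11.4 points, 95% interval 7.72 to 15.0, higher on 22 of 23 chromosomes). First introns accounted for most of this, with 19.8% against 10.7% (difference 9.02 points, interval 6.43 to 11.6). In the typical enhancers in hand, 39.1% of peaks were in introns and 13.6% in first introns. For the peaks in no enhancer in hand the shares were 34.9% and 10.3%, and neither group was tested. Exons held 2.99% in SEs and 3.52% elsewhere, and the interval of that difference reached from -1.30 to 0.25 points. Outside protein-coding genes lay 50.3% against 61.1%, and 339 of these 1463 peaks in SEs were within a long non-coding RNA gene. Distances were also shorter, with a median of 8267 bp to the nearest TSS of any kind against 10070.5 bp, and 57.2% against 49.8% within 10 kb of one. In the typical enhancers in hand the median was 7939.5 bp, so a short distance was not particular to SEs. The rule sets the lower limit of these distances. The peaks just inside the limit had midpoints 1501 to 1512 bp from a TSS, and those just outside it, in SEs, 1493 to 1500 bp.

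In all, 547 protein-coding genes had such a peak within them, 237 with 1 and 82 with 5 or more. After CMIP with 18 and ANO1 with 17 came ZMIZ1, a coactivator of nuclear receptors and SMADs, with 14, SHB, an adaptor of receptor tyrosine kinases, with 13, ASAP2 and RPTOR, a subunit of the mTORC1 kinase, with 12 each, and EGFR with 10. Among these, the peaks in ASAP2 and EGFR were narrow, with medians of 489.5 and 471 bp, while those in ZMIZ1 had a median of 1533 bp. NECTIN1, a cell adhesion molecule, had 7 of its 8 in the first intron. Along the SE the peaks were not gathered in the middle, since 51.2% lay in the central 50% of the SE length (interval 49.4 to 53.1%).

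Other ETS1 peaks were near in most cases. The closest peak of the list was a median of 3303.5 bp away, against 11799 bp for TSS-distal peaks elsewhere, and 24.5% had another within 1 kb. For the peaks in the typical enhancers in hand this median was 4437.5 bp, and for those in no enhancer in hand 13883 bp. SEs are by definition stretches of clustered enhancers, and the difference was not tested. By chromosome, the share of TSS-distal peaks that were in SEs ran from 3.67% on chromosome 4 (9 of 245) and 8.30% on chromosome 13 to 31.4% on chromosome 14 (186 of 593).

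The sequence of the peaks was compared in 600 bp windows, for 21 motifs searched on both strands. The ETS core was present in 85.3% of the windows in SEs (2482 of 2910, Wilson interval 84.0 to 86.5%) and in 86.3% of those elsewhere (interval 85.7 to 87.0%). With GC content and log2 width as covariates, the odds ratio was 0.921 (95% interval 0.817 to 1.04, adjusted p = 0.346, n = 12980 peaks). AP-1 sites were in 37.0% (interval 35.3 to 38.8%) and 39.9% (interval 39.0 to 40.9%), with an odds ratio of 0.884 (interval 0.807 to 0.968, adjusted p = 0.0844, n = 12980 peaks). None of the 21 motifs passed an adjusted p of 0.05, with p-values from logistic regression adjusted over the 21 by the Benjamini-Hochberg procedure. Other settings called 3 of them less frequent in SEs. CCGGAA passed at peaks over 5 kb from any TSS (odds ratio 0.756, interval 0.647 to 0.883) and without covariates (0.823, interval 0.728 to 0.931), where the CTCF core also passed (0.573, interval 0.404 to 0.814). The E-box CACGTG passed in 200 bp windows (0.689, interval 0.554 to 0.856). The intervals, which are not adjusted, left out 1 for AP-1 and for the 5 motifs described next.

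Of these, the ETS site CCGGAA was in 12.5% against 14.8% of windows (odds ratio 0.837, interval 0.739 to 0.947) and TEAD, GGAATG, in 38.8% against 36.4% (odds ratio 1.11, interval 1.02 to 1.21). FOX, GTAAACA, was in 6.01% against 7.39% (odds ratio 0.813, interval 0.684 to 0.968). The SP site GGGCGG was in 24.8% against 26.7%, and the core of CTCF, a factor of chromatin loops, in 1.37% against 2.37% (odds ratio 0.683, interval 0.480 to 0.974). The motif GGAATG contains the letters GGAA and can overlap an ETS site, as can STAT (TTCCNGGAA) and NF-kB (GGGANTTCC).

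For the other 14 motifs the interval held 1. CAGGAA was in 67.3% against 68.5%, RUNX (TGTGGTT) in 13.7% against 15.0% and KLF (GGGTGTG) in 23.3% against 21.1%. C/EBP (TTGCNNAA) was in 24.0% against 24.6%, the site AGATAA of GATA factors in 19.8% against 19.9%, SOX (AACAAT) in 18.4% against 18.8% and TCF/LEF (CTTTGA) in 27.8% against 28.4%. The E-box CACGTG was in 10.8% against 11.7%, and CAGGTG, bound by SNAI and ZEB repressors, in 53.6% against 52.8%. STAT was in 2.68% against 2.64% and NF-kB in 4.12% against 3.77%. The cyclic AMP response element TGACGTCA, the full p63 site and the GRHL site AACCGGTT each occurred in under 1% of windows in both groups, where the intervals were wide (for GRHL, odds ratio 1.12 with an interval of 0.458 to 2.72).

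**Figure D4:**
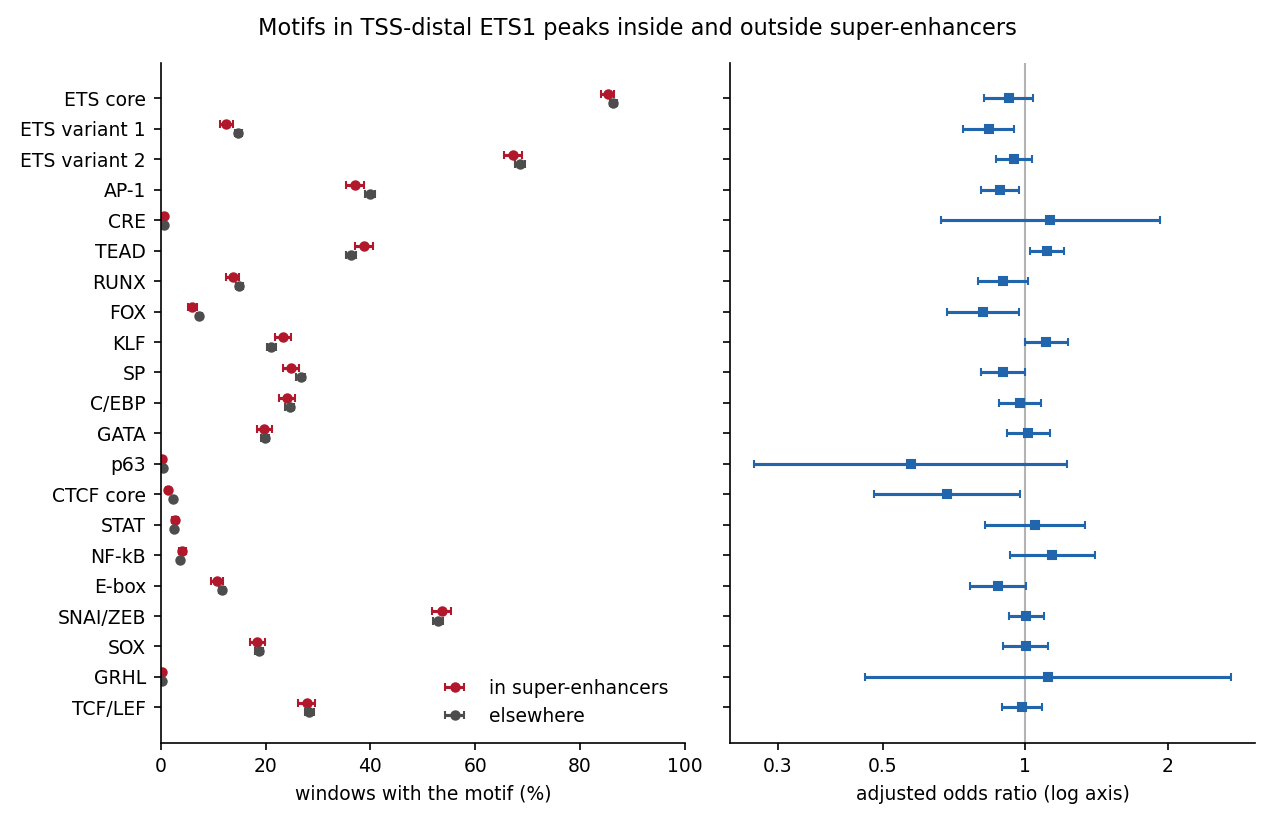
On the left, the percent of 600 bp windows with each of 21 motifs in TSS-distal ETS1 peaks in SEs (red, n = 2910) and elsewhere (grey, n = 10070), with 95% Wilson intervals. On the right, the odds ratio on a log axis, adjusted for GC content and width, with its 95% interval; ETS variant 1 is CCGGAA and variant 2 is CAGGAA. The shares lie close together for every motif, from under 1% for GRHL to 85.3% and 86.3% for the ETS core.

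Both motifs marked the middle of the peaks, AP-1 more sharply. Within 50 bp of the midpoint, AP-1 sites stood at 50.5 per 1000 peaks and 50 bp in SEs, 4.06 times the 12.4 found 750 to 1000 bp away. Outside SEs the ratio was 5.90, from 60.9 against 10.3. The ETS core, which is shorter, stood at 188 against 135 in SEs (ratio 1.39) and at 200 against 134 elsewhere (ratio 1.49). These profiles are descriptions with no test and no adjustment for width, and the peaks in SEs were wider. With the 2910 peaks in 4 groups by width, AP-1 sites were in 39.8, 39.1, 40.8 and 28.3% of windows from the narrowest to the widest, and the ETS core in 87.4, 86.0, 86.1 and 81.7%. In 200 bp windows the shares of AP-1 in these groups were 22.5, 19.5, 15.7 and 11.1%. Over the whole peak instead of 600 bp, AP-1 sites were in 46.4% of the peaks in SEs and 44.6% elsewhere. They stood at 0.595 and 0.702 sites per kb, also without adjustment for width.

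**Figure D5:**
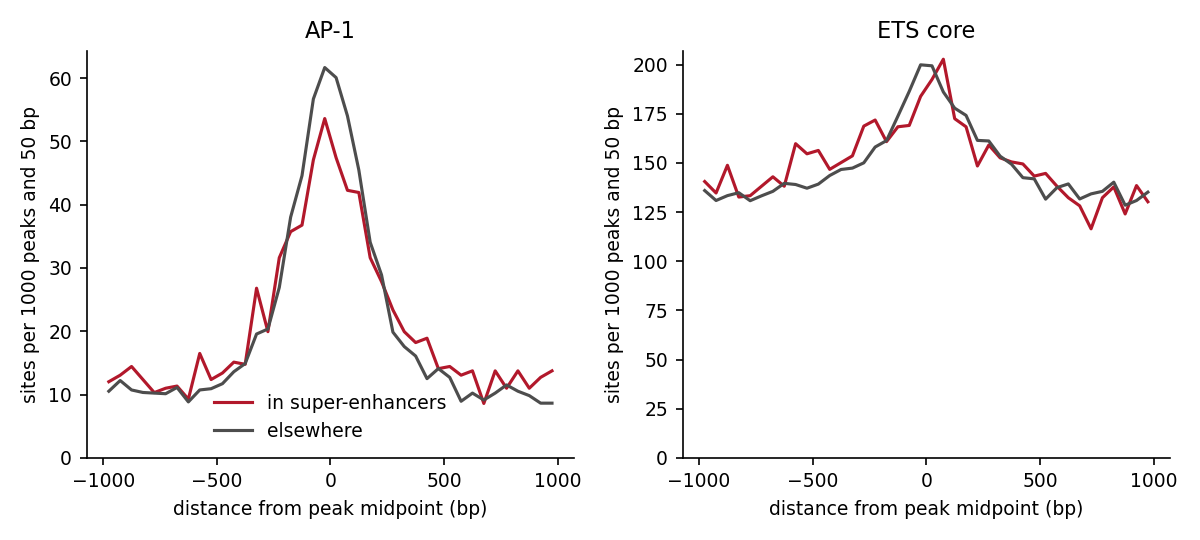
The number of AP-1 sites (left) and ETS cores (right) per 1000 peaks in each 50 bp is plotted against the distance from the peak midpoint in bp, in SEs (red) and elsewhere (grey). AP-1 rises to 53.6 sites in SEs and 61.7 elsewhere beside the midpoint, from about 10 at the edges, while the ETS core rises from about 135 to about 200.

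An ETS core without an AP-1 site was the most common arrangement in SEs, in 1568 of the 2910 windows (53.9%), against 52.1% elsewhere. An ETS core and an AP-1 site were both present in 31.4% against 34.2%. An AP-1 site without this core was in 5.60% against 5.72%, and neither was present in 9.11% against 7.93%. Windows without the core can still hold other GGAA sites, such as CCGGAA. The core is short and stood at 135 per 1000 peaks and 50 bp even in the flanks of the peaks in SEs. How many windows would hold it without ETS1 binding was not tested. Windows in SEs held 2.05 ETS cores on average and those elsewhere 2.07, with up to 12 in SEs, and 197 of the windows in SEs had 5 or more (6.77% against 6.56%). At least 2 AP-1 sites were in 5.98% against 7.64%.

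Across all 2080 6-mers, with both strands merged, 17 were more frequent in SEs (0.817% of those tested) and 48 less frequent (2.31%) at an adjusted p under 0.05 by the same regression. Those less frequent were mostly CpG-rich, with CG in 42 of the 48, where 604 of all 2080 contain it. The 10 with the lowest odds ratios were CGCGAC at 0.561, ACCGCG at 0.581, CGGCGA at 0.588, CCGCGC at 0.608, AGCGCG at 0.619, CGCGGC at 0.629, CGCGCA at 0.638, ACGGCG at 0.642, CGCCGC at 0.655 and CGCGAG at 0.660. CGCGAC was in 1.44% of windows in SEs and 2.63% elsewhere. The 10 with the highest were CAGCCC at 1.24, CAGGCC at 1.22, CCAGGC at 1.20, AGGCCC at 1.19, CACCCA at 1.18, GGCCCA at 1.18, CCTGAG at 1.18, AGGCCA at 1.18, AGATCC at 1.17 and CCACCC at 1.17. CAGCCC led with 68.0% against 62.6% of windows. With 200 bp windows no 6-mer passed, while 241 had an unadjusted p under 0.05. In the first 13485 lines of the list 4 passed, and with whole chromosomes in place of 1 Mb blocks 18 did.

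Of the 48 6-mers that contain GGAA on either strand, 2 were more frequent (ATTCCA, odds ratio 1.16, and CTTCCC, 1.15) and 1 less frequent (ACTTCC, 0.864) in SEs. Their median odds ratio was 1.01, beside 0.989 over all 6-mers. The 2 core 6-mers AGGAAG and AGGAAA did not pass, with odds ratios of 0.992 (interval 0.904 to 1.09) and 1.01 (interval 0.930 to 1.11). CpG dinucleotides made up 1.89% of the window in SEs and 2.18% elsewhere, a difference of -0.29 percentage points (95% interval -0.38 to -0.21). The GC content was 53.3% and 53.1%, with a difference of 0.18 points and an interval of -0.23 to 0.58.

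Protein-coding genes were given the peaks in their regulatory domain by the default rule of GREAT, a basal part of 5 kb before and 1 kb after the TSS with an extension of up to 1 Mb to the next gene. A TSS-distal ETS1 peak in an SE fell in the domain of 1554 of 19812 genes, or 7.84%. These genes had a median of 3, 473 had 1 and 88 had 10 or more. Their domains were long, with a median of 212 kb against 115 kb for all genes. ANO1 had 26, FADD, SLC44A3 and F3 had 23, SMIM38 and ZFP36L1 22, HAAO and ZFP36L2 21, and PPIF and ZMIZ1 19. Of these, ZFP36L1 and ZFP36L2 encode related proteins that bring AU-rich mRNAs to decay, and PPIF encodes a cyclophilin of the mitochondrial matrix. Neighbouring genes share peaks under this rule. By the nearest canonical TSS instead, 960 genes had a peak.

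The shares of the gene lists are to be read beside 7.84% of all genes and beside the length of the domains, since most lists had longer domains than the 115 kb of all genes. The median domain was 814 kb for feedback inhibitors of ERK, 582 kb for squamous transcription factors, 443 kb for TGF-beta signalling, 404 kb for EGFR receptors and ligands and 393 kb for EMT. It was 316 kb for the ETS family, 237 kb for the Hippo pathway and 188 kb for desmosomes, and was shorter than 115 kb for squamous markers (92.0 kb), AP-1 (85.2 kb) and ribosomal proteins (46.3 kb). Among integrins and laminins, the receptors and ligands of the basement membrane, 10 of 17 genes had such a peak, with a median domain of 223 kb. ITGA6 had 14, ITGB6 7, ITGA3 and ITGB1 5 each, and LAMB3, LAMA5 and LAMC1 3 each. By the nearest canonical TSS, ITGB6 had 7, ITGA6 6, ITGA3 5, ITGB1 4, LAMB3 3, LAMA5 1 and LAMC1 0. Of the 12 desmosome genes 4 had such a peak in their domain, with PKP1, a plakophilin, at 11 and JUP, plakoglobin, at 5.

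Of 19 genes of the epithelial to mesenchymal transition (EMT), 9 had one. CDH1, the E-cadherin of epithelial junctions, had the most with 10, followed by SPARC with 7 and the repressor gene SNAI2 with 5. The matrix gene TNC had 4, TGFBI 3 and the receptor kinase gene AXL 2. By the nearest canonical TSS, CDH1 had 7, SNAI2 5, TNC 4, TGFBI 3, and SPARC and AXL 1 each. SNAI1, ZEB1, ZEB2, TWIST1, PRRX1 and VIM had 0 each. Of 15 genes of TGF-beta signalling 4 did, led by SMAD3, a signal transducer of the pathway, with 13, and its inhibitor SMAD7 with 2.

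Of 18 squamous transcription factors 6 did, with TP63 at 10, RUNX1 at 9, GRHL3 at 5 and GRHL2 at 3. SOX2, KLF4, KLF5, TFAP2A and TFAP2C had 0, although 14 TSS-distal peaks outside SEs fell in the domain of KLF4 and 17 in that of TFAP2C. TFAP2A lies under the SE of rank 93, which held 5 ETS1 peaks, all of them near a TSS. Within the ETS family itself 5 of 20 genes had a TSS-distal peak of an SE in their domain. ETS2, the closest relative of ETS1, had 11, ERG 7, the epithelial factor EHF 6, ELK3 4 and ETS1 2. ETS2 and ERG both lie on chromosome 21, and by the nearest canonical TSS ETS2 had 7 and ERG 1. EHF, ELK3 and ETS1 kept 6, 4 and 2 by that rule. Of 13 AP-1 genes, FOSL2 had 7 in its domain and JUN and JUNB 1 each.

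In signalling through EGFR and ERK, 3 of 12 receptors and ligands had a peak, EGFR with 12, its ligand TGFA with 5 and NRG1 with 1. Among 11 feedback inhibitors of ERK, 5 did, with the ERK phosphatase gene DUSP5 at 10, DUSP1 and SPRED2 at 4, and DUSP6 and SPRY4 at 1. Of 13 genes of the Hippo pathway 5 did, with FAT2 at 11, AMOTL2 at 7, the coactivator YAP1 and its partner TEAD1 at 3 and TEAD3 at 2. By the nearest canonical TSS, EGFR had 12, FAT2 10, DUSP5 and AMOTL2 6 each, TEAD1 3, TEAD3 2, TGFA 1 and YAP1 0.

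As a check on the label of the cells, 7 of 11 marker genes of squamous epithelium had such a peak (KRT5, KRT14, KRT17, TP63, ITGA6, ITGB4 and SFN), and KRT15, DSG3, DSC3 and PERP had none. None of the 10 marker genes of blood, endothelial or liver cells with a domain had one. Over all protein-coding genes the share was 7.84%, so 0 in a list this short is near that share and tells little about the cells. Of 15 genes of ribosomal proteins, RPL5 and RPL11 had 1 each. A peak in a domain says nothing of whether the gene is expressed or answers to ETS1.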

How the data were processed

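ETS1 ChIP-Seq reads of the 3 SCC25 samples were mapped by the authors to hg19 with Bowtie 1.1.1 and handled with SAMtools 1.3, per the labels. Peaks were called with MACS2 against a merged input, and IDR was run on samples, pseudo-replicates and the pool. The deposited list holds positions only. SEs were taken from the authors' enhancer table, made with ROSE from H3K27Ac data. It was in hand for all 965 SEs and for 1034 typical enhancers, which were not tested. No peak on a nuclear chromosome ended past the GRCh37 sequence, from which, with GENCODE 44, sequence and genes were read. The peaks, motifs and gene lists were chosen with earlier results of these data known.

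Presence of motifs and 6-mers was tested by logistic regression with GC content and log2 width as covariates, and widths and shares by linear regression, with a sandwich estimate over 1 Mb blocks (1984 of them) and 95% intervals. P-values were adjusted by the Benjamini-Hochberg procedure. Shares have Wilson intervals. Code was tested on simulated data. Named in the text are the 10 SEs with most peaks (with ties at the tenth), the highest-ranked SE without one, the 3 widest peaks, SEs of 13 genes that the study names beside SEs, the 10 6-mers at each end, all motifs, the 10 genes with most peaks, and members of the gene lists. The highest-ranked SE without one and 1 gene of the lists are not reported here. Host genes, the SE of rank 93, single peaks of named SEs and TSS-near values were named after being seen. Alternatives were the distance from a TSS, the overlap with SEs, the first 13485 lines, SEs of high input, the 3 SEs with most peaks, the window, the covariates and the unit that shares error. Computation used matplotlib 3.10.9, pysam 0.24.0, scipy 1.17.1, pandas 2.3.3 and numpy 2.4.6 under Python 3.11.15.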

Additional observations from a re-analysis of the deposited data

How the results depend on the processing

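The first 13485 lines of the list held 1571 of the 2910 peaks, and over the other settings the number lay between 1969 (a larger distance from any TSS, 5 kb) and 3280 (TSSs of protein-coding genes only). In those first lines the odds ratio of the ETS core turned to 1.08 (interval 0.904 to 1.29), and in 200 bp windows that of RUNX turned to 1.07 (interval 0.889 to 1.28), neither past the threshold in any setting. Also in the first lines, GC content was higher in SEs by 0.51 points (interval 0.05 to 0.97). The 65 6-mers became 4 in the first lines, 18 with the chromosome as the unit that shares error and 0 in 200 bp windows, with 188, 315 and 241 at an unadjusted p under 0.05. Genes with a peak numbered 960 by the nearest canonical TSS and 109 in the basal domain alone. The odds ratio of AP-1 lay between 0.858 and 0.937 and that of TEAD between 1.11 and 1.17, with no adjusted p under 0.05. Without the 38 SEs whose input density was over 2 times the median, which held 135 of the peaks, AP-1 had 0.912. Differences in width, introns, CpG and list position changed neither direction nor call in the settings run. The list position within the first lines could not be computed, since all lines there are first lines. The cause of these changes was not tested. No paired analysis was possible because the list is pooled, and no replicate could be left out.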
